A study of Mus musculus with 8 samples.

Results

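Lin28b, Hmga1, Hmga2, Igf2bp1, Igf2bp2, Igf2bp3 and Arid3a are 7 genes that are known for high expression in fetal cells, and they were followed here as a set of 7 named genes among the 32285 genes counted. They were chosen by name, and all 7 were measured in all 6 single-cell libraries. The libraries hold mouse cells sorted by the surface markers Lin-, Sca-1+, Kit+ and Epcr+, a phenotype of haematopoietic stem cells, after enrichment for c-Kit. The E19 library came from wild-type embryos at day 19 of gestation, and its title names bone marrow while its tissue field names fetal liver. The P2 libraries came from pups 2 days after birth. Of these, 3 were made from bone marrow, liver and spleen of the same 7 merged wild-type mice, called the pool below. The other 2, tube 1 and tube 2, held bone marrow and spleen cells of 2 pups that carried Tppp3-CreERT2 and a lox-STOP-lox tdTomato allele and that received tamoxifen at P0, so that tdTomato marks cells of the Tppp3-driven Cre and their progeny. The strain is not given in the sources used here. The pool, the E19 library and the tubes are batches 1, 2 and 3 in the labels.

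LIN28B is an RNA-binding protein that blocks the maturation of let-7 microRNAs, and let-7 in turn silences messages that carry its target sites. Lin28b is itself such a target, and so are the chromatin protein gene Hmga2, the Igf2bp genes, which encode RNA-binding proteins that stabilise and transport messages, and Arid3a, which encodes a DNA-binding protein of B-cell and fetal blood development. In mouse blood, LIN28B is known to maintain fetal features of stem cells and of the B and erythroid lineages, HMGA2 is known to promote self-renewal of fetal stem cells, and IGF2BP2 and IGF2BP3 are known as RNA-binding proteins of fetal and young stem and progenitor cells.

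The let-7 sequences are shown because the seed, bases 2 to 8, is the part that pairs with a target. Among the mature let-7 family members in RefSeq (build GRCm38.p6), 10 names shared the seed GAGGUAG and 1, let-7j, had GAGGUAU. The seed is in capitals below.
mmu-let-7a-5p: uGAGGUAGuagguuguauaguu
mmu-let-7g-5p: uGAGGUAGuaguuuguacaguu
mmu-miR-98-5p: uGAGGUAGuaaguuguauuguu
mmu-let-7j: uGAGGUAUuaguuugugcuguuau

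The complement of the common seed, CTACCTC on the sense strand, was searched in the longest annotated 3′ UTR of each gene (mm10/GRCm38, GENCODE vM21). It occurred 4 times in Lin28b, 4 times in Hmga2, 4 times in Igf2bp1, 2 times in Arid3a, and 1 time each in Hmga1, Igf2bp2 and Igf2bp3. Of 20921 genes with an annotated 3′ UTR, 9.06% held at least 1 such match. Among genes with a 3′ UTR of 0.8 to 1.25 times its length, as many matches were held by 0.295% for Lin28b, 0.123% for Hmga2, 0.331% for Igf2bp1 and 2.35% for Arid3a. For the genes with 1 match, the like share was 8.24% for Hmga1, 12.1% for Igf2bp2 and 13.3% for Igf2bp3. A match is a stretch of letters and no evidence of binding, and let-7 itself was not measured. The first match of each gene after the stop codon is printed on the gene's own strand, with the match in capitals.
Lin28b (chr10:45381019-45381044, minus strand): acccgggcgggaagtCTACCTCatgc
Hmga1 (chr17:27563277-27563302, plus strand): tcctctgttcacaaaCTACCTCtgga
Hmga2 (chr10:120364221-120364246, minus strand): gccgacattcaatttCTACCTCagca
Igf2bp1 (chr11:95961775-95961800, minus strand): gctgtgcgaagtaaaCTACCTCaagg
Igf2bp2 (chr16:22059470-22059495, minus strand): acacacaaataaaagCTACCTCaggt
Igf2bp3 (chr6:49086784-49086809, minus strand): tgcatttttactcaaCTACCTCaggt
Arid3a (chr10:79953895-79953920, plus strand): aaggcaagtttctttCTACCTCaggt

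After the filters of at least 1000 genes, at least 2000 UMIs and at most 10% mitochondrial UMIs, 37147 cells were kept, between 2473 and 10725 in a library. A UMI is 1 counted RNA molecule. The sort label was checked against marker genes, and many kept cells of the pool carried lineage markers, so cells were split by their own transcripts. A stem-gated cell had at least 4 of 10 stem markers (among them Mecom, Hlf, Mllt3 and Procr, the gene for Epcr) and fewer than 10 UMIs per 10000 of every lineage list, and a lineage-gated cell had fewer than 4 stem markers and a leading lineage list at or over that level. This gave 17123 stem-gated and 14042 lineage-gated cells. Stem-gated cells were 82.6% of the kept E19 cells, 27.5%, 4.06% and 20.9% of the pool's bone marrow, liver and spleen, 97.3% of tube 1 and 68.4% of tube 2. The median depth of stem-gated cells was 6260 UMIs at E19, between 6489 and 8856 in the pool, and 20249 and 22136.5 in tubes 1 and 2. Between 16 and 34 barcodes were shared by any 2 of the E19 and pool libraries, 3 by the 2 tubes, and none by a tube and the rest. Levels below are CPM, the UMIs of a gene per 1000000 UMIs of the summed cells. The 3 pool libraries share mice and were summed as 1 source in every test against E19 and against lineage cells. Replicates are therefore few: 1 E19 source and 3 P2 sources (the pool, tube 1 and tube 2).

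In stem-gated cells, 5 of the 7 genes had a higher level at E19 than in each of the 5 P2 libraries, 1 (Hmga1) had a lower level than in each, and 1 (Igf2bp3) lay within the P2 range. Among all genes at 1 CPM or more in any library, E19 was above all 5 P2 libraries for 19.5% and below all 5 for 28%. The largest ratio was that of Igf2bp1. The test across all genes, edgeR's quasi-likelihood fit with Benjamini-Hochberg adjustment, called 0 of the 7 and 0% of 17206 genes at an adjusted p under 0.05, with 2972 genes at an unadjusted p under 0.05. DESeq2 called 945 genes on the same sums, among them Igf2bp1, Igf2bp2 and Hmga2. With 1 E19 library, its spread was assumed equal to that of the P2 sources. Stage, batch and Cell Ranger version cannot be told apart. Tissue may differ too, since the labels of the E19 library name both bone marrow and fetal liver. The tubes also differ from E19 in genotype and tamoxifen.

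**Figure D1:**
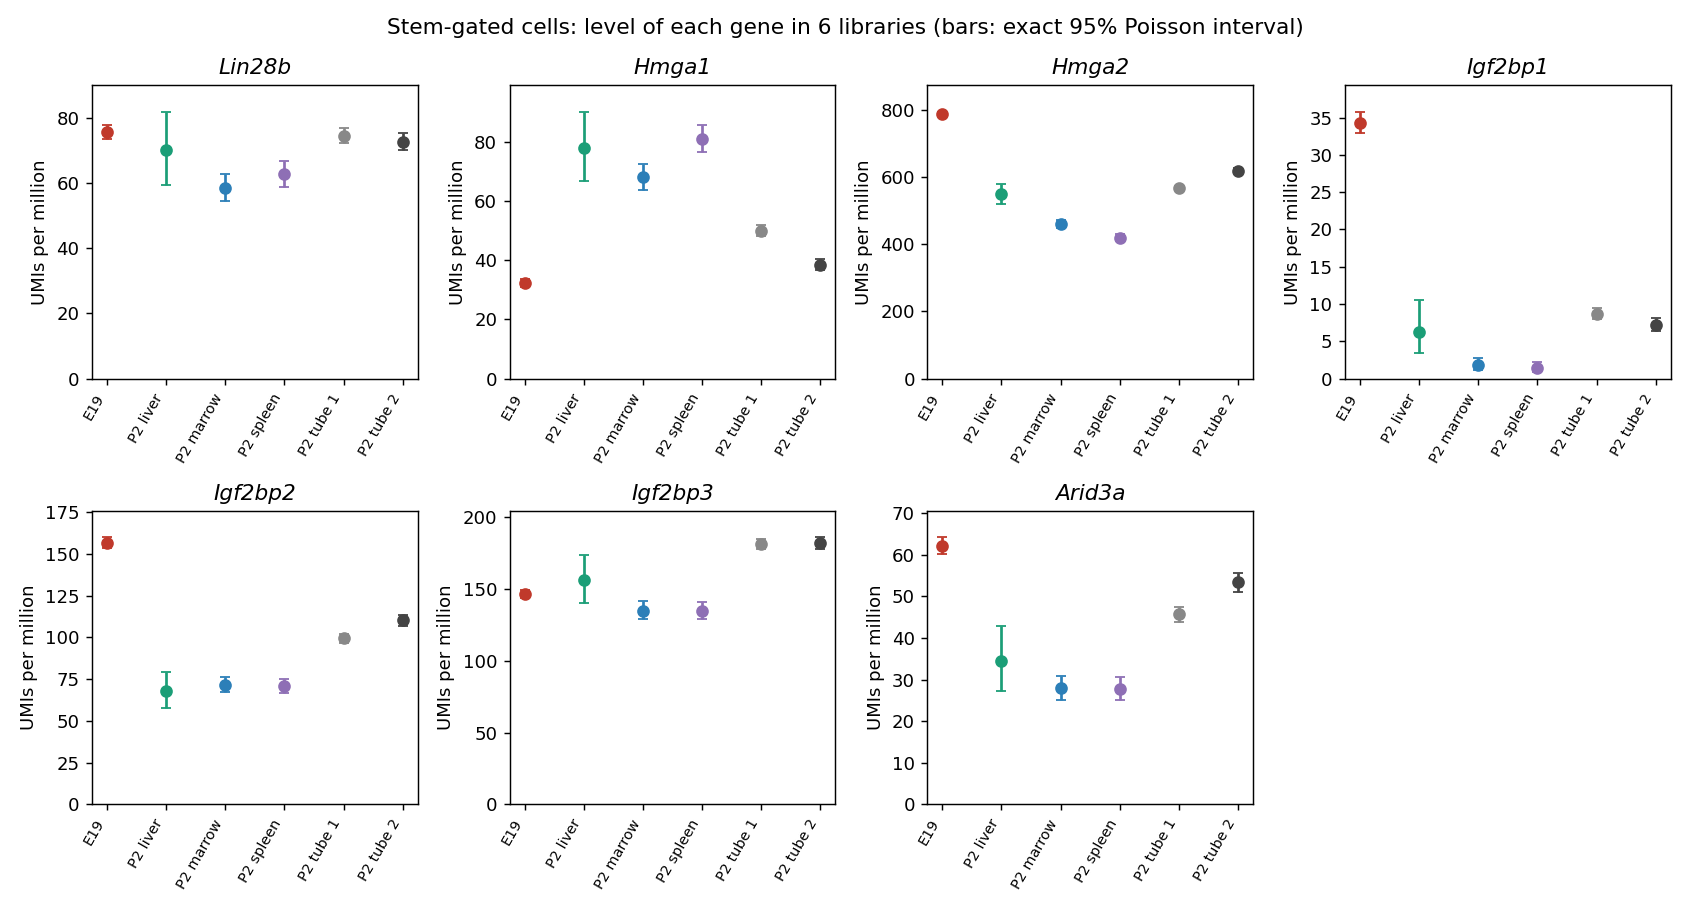
Level of each of the 7 genes in stem-gated cells (CPM, vertical axis from 0) in the E19 library and the 5 P2 libraries, with exact 95% Poisson intervals that cover counting error only. Igf2bp1 stands at 34.3 CPM at E19 and between 1.43 and 8.72 CPM in P2 libraries, and Hmga1 at 32.3 CPM at E19 and between 38.4 and 81.0 CPM in P2 libraries.

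Lin28b, the RNA-binding protein gene that names the pathway, differed little between the stages. It had 75.8 CPM at E19, against 58.6, 70.1 and 62.8 CPM in the pool's bone marrow, liver and spleen and 74.6 and 72.7 CPM in tubes 1 and 2. The counting intervals of E19 (73.7 to 78.0 CPM) and of the liver and both tubes overlapped, and bone marrow and spleen of the pool lay lower. The fitted log2 fold change was 0.18 ± 0.13 (SE), with an edgeR adjusted p of 0.518. With every stem-gated cell thinned to 5000 UMIs, 29.8% of cells had a Lin28b UMI at E19 and between 24.1% and 30.4% in the P2 libraries.

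Hmga2, which encodes a chromatin protein of fetal stem cells, had 787 CPM at E19, against 460, 548 and 418 CPM in the pool's bone marrow, liver and spleen and 565 and 618 CPM in tubes 1 and 2. E19 was the highest of the 6 libraries and its counting interval met none of the others. The log2 fold change was 0.60 ± 0.22, with an edgeR adjusted p of 0.273 and a DESeq2 adjusted p of 0.0340. At 5000 UMIs per cell, 94.4% of E19 cells and between 79.5% and 92.6% of P2 cells had a Hmga2 UMI.

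Hmga1, the paralogue that is widely expressed in dividing cells, went the other way: 32.3 CPM at E19, against 68.0, 77.7 and 81.0 CPM in the pool's bone marrow, liver and spleen and 49.9 and 38.4 CPM in tubes 1 and 2. The P2 libraries themselves spread over a wide range, tube 2 being close to E19. The log2 fold change was -0.73 ± 0.49, with an edgeR adjusted p of 0.479. Reads of Hmga1 may be shared with the near-identical Hmga1b, which had 2.36 CPM at E19 and between 0.916 and 1.95 CPM in P2 libraries, so the level of Hmga1 is uncertain.

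Igf2bp1 had the largest ratio. It stood at 34.3 CPM at E19, against 1.83, 6.25 and 1.43 CPM in the pool's bone marrow, liver and spleen and 8.72 and 7.19 CPM in tubes 1 and 2. The P2 values rest on 24, 14 and 21 UMIs in the pool and on 496 and 284 in the tubes, against 2193 at E19. The ratio of E19 was 3.94-fold over tube 1 and 24.0-fold over pool spleen, and the log2 fold change was 2.60 ± 0.64, with adjusted p-values of 0.204 (edgeR) and 0.00299 (DESeq2). At 5000 UMIs per cell, 15.8% of E19 stem-gated cells had an Igf2bp1 UMI, against 0.539%, 2.83% and 0.892% in the pool's bone marrow, liver and spleen and 5.03% and 3.88% in tubes 1 and 2.

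Igf2bp2 had 157 CPM at E19, against 71.7, 67.9 and 70.7 CPM in the pool's bone marrow, liver and spleen and 99.4 and 110 CPM in tubes 1 and 2. The order was E19 above both tubes and both tubes above the pool, whose 3 tissues did not differ beyond their counting intervals. The log2 fold change was 0.81 ± 0.20, with adjusted p-values of 0.204 (edgeR) and 0.0183 (DESeq2). Igf2bp3 had 146 CPM at E19, against 135, 156 and 135 CPM in the pool's bone marrow, liver and spleen and 181 and 182 CPM in the tubes. E19 lay above the pool's bone marrow and spleen and below both tubes, its counting interval overlapped that of liver, and the log2 fold change was -0.12 ± 0.18 (edgeR adjusted p = 0.736).

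Arid3a had 62.2 CPM at E19, against 27.9, 34.4 and 27.8 CPM in the pool's bone marrow, liver and spleen and 45.6 and 53.4 CPM in tubes 1 and 2. E19 was again highest, and the tubes again lay between E19 and the pool. The log2 fold change was 0.62 ± 0.28, with an edgeR adjusted p of 0.333.

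**Figure D2:**
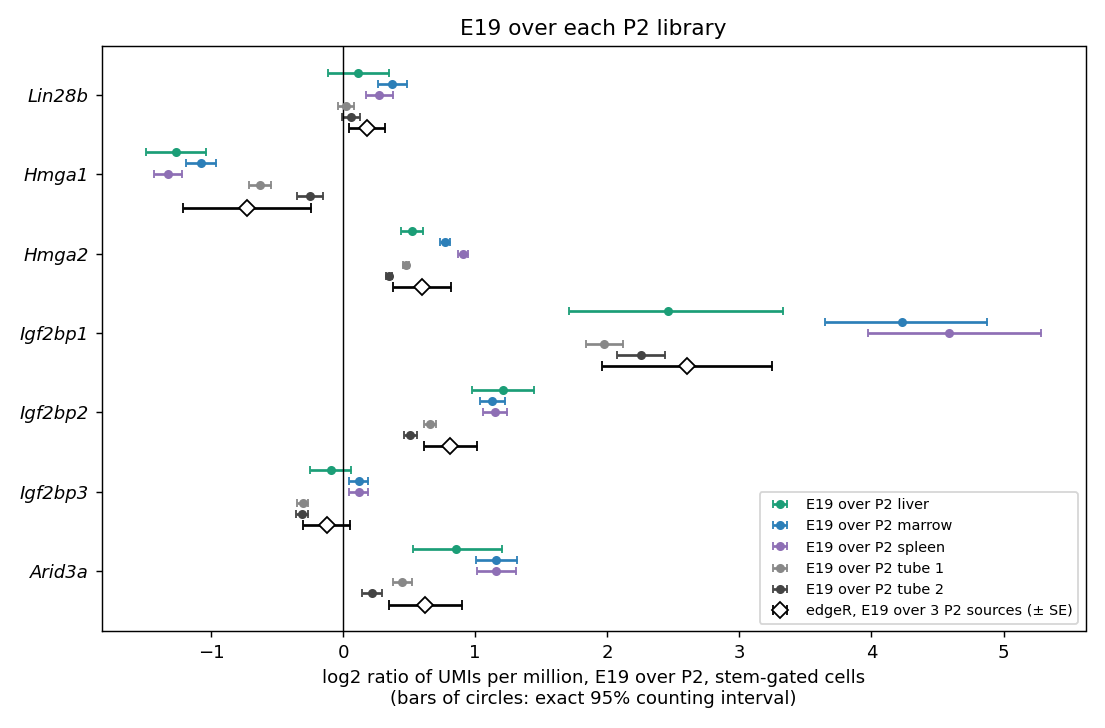
Log2 ratio of E19 over each P2 library for the 7 genes in stem-gated cells (horizontal axis; circles with exact 95% counting intervals), and the edgeR log2 fold change over the 3 P2 sources (open diamonds, ± SE). All 5 ratios of Igf2bp1 lie at 1.98 or more, those of Igf2bp2, Hmga2 and Arid3a lie above 0, and those of Hmga1 lie below 0.

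Without the pool, E19 against the 2 tubes gave log2 fold changes of 2.21 for Igf2bp1, 0.70 for Igf2bp2, 0.52 for Hmga2 and 0.44 for Arid3a. Those of Lin28b, Igf2bp3 and Hmga1 were 0.15, -0.20 and -0.34. The 2 tubes are 1 batch that shares both pups, so this fit takes its spread from within that batch. Other features of the stem-gated cells differed between E19 and the P2 libraries. The stem list also defines the stem gate, so its level in gated cells is partly set by the gate. The summed stem list stood at 3948 CPM at E19 and between 2157 and 3417 CPM in P2 libraries, with Mecom at 1552 CPM at E19 and between 696 and 1001 CPM in P2 libraries. The summed list of 13 mitotic genes stood at 1201 CPM at E19 and between 2143 and 2756 CPM in P2 libraries. At 5000 UMIs per cell, 68.1% of E19 stem-gated cells had a mitotic UMI, against 88.1%, 78.8% and 86.7% in the pool's bone marrow, liver and spleen and 74.8% and 70.0% in tubes 1 and 2. The counting intervals of E19 (66.9% to 69.2%) and tube 2 (67.7% to 72.2%) overlapped. In stem-gated cells with no mitotic UMI, and in cells with a stem list of 25 UMIs per 10000 or more, the direction was the same for all 7 genes but Igf2bp3. The log2 fold change was then 2.18 and 2.19 for Igf2bp1, 0.50 and 0.66 for Igf2bp2, and 0.47 and 0.59 for Arid3a. In the main fit these were larger, at 2.60, 0.81 and 0.62. Hmga1 was smaller in size too (-0.57 and -0.63, against -0.73). Hmga2 changed little (0.58 and 0.65, against 0.60), and Lin28b was higher (0.20 and 0.25, against 0.18). The part of the 2 lists in the levels was not otherwise tested. The summed list of 8 hepatocyte genes stood at 31.2 CPM at E19 and between 24.8 and 42.4 CPM in P2 libraries. Of the 8 genes, Alb, Ttr, Serpina1a and Fgb were above 0 in stem-gated cells of E19 and of P2 liver and at 0 in those of bone marrow, spleen and both tubes. The other 4 (Afp, Apoa1, Apoa2 and Trf) were above 0 in all 6 libraries. Afp had 4.29 CPM at E19 and between 4.62 and 9.39 CPM in P2 libraries, and Trf had 21.0 CPM at E19 and between 18.6 and 26.8 CPM in P2 libraries.

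Since 0 of all 17206 genes were called between the stages, the counts for 3 lists of related genes are 0 too and say nothing about the lists. Of 15 genes that handle let-7 or pair with LIN28 (the paralogue Lin28a, the uridylyltransferases Tut4 and Tut7, the exonuclease Dis3l2, the microRNA processors Drosha, Dgcr8 and Dicer1, and others), 12 were tested and 0 rose or fell, with a median log2 fold change of -0.07 against -0.04 over all tested genes. Of 16 other genes described as let-7 targets, 16 were tested and 0 were called, with a median of -0.13. Of 9 other fetal genes, 6 were tested and 0 were called, with a median of 0.99. In that list H19, an imprinted fetal RNA, had 76.2 CPM at E19 and between 5.71 and 14.3 CPM in P2 libraries (log2 2.87 ± 0.36, edgeR adjusted p = 0.121), and Dlk1 had 52.9 CPM at E19 and between 11.8 and 29.3 CPM in P2 libraries (1.28 ± 0.39, adjusted p = 0.24).

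In the pool, P2 liver had the highest Igf2bp1 and Hmga2 of the 3 tissues. Each tissue is 1 library of the same mice, so no test was made and the intervals cover counting error only. Igf2bp1 had 6.25 CPM in liver (3.42 to 10.5), against 1.83 CPM in bone marrow and 1.43 CPM in spleen. The log2 ratio of liver was 1.77 over bone marrow (0.71 to 2.78) and 2.13 over spleen (1.04 to 3.17). For Hmga2 the log2 ratio of liver was 0.25 over bone marrow (0.16 to 0.34) and 0.39 over spleen (0.30 to 0.48), and for Igf2bp3 it was 0.21 over each, with lower bounds of 0.04. The intervals of Igf2bp2, Hmga1 and Arid3a held 0 in both comparisons, and that of Lin28b in the comparison with spleen. Stem-gated liver cells were few, 229 of 5634 kept cells. Which 95% intervals held 0 depended on the gate and on doublets: with gates on thinned cells that of Arid3a did not (0.05 to 0.88 over bone marrow, 0.13 to 0.95 over spleen) and that of Lin28b over bone marrow did (-0.13 to 0.47), and with doublets removed that of Igf2bp3 over spleen did (-0.014 to 0.33).

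Between bone marrow and spleen at P2, tested over the pool and the 2 pups (tdTomato-negative cells) with source as a block, none of the 7 genes was called, where 0.042% of 14286 genes were, 0.035% higher and 0.007% lower in bone marrow (6 genes by edgeR, 1594 at an unadjusted p under 0.05, and 56 by DESeq2). The lowest p was that of Hmga1, which had 68.0, 35.2 and 48.4 CPM in bone marrow of the pool, pup 1 and pup 2, against 81.0, 39.1 and 52.5 CPM in their spleens. It was lower in bone marrow in 3 of 3 sources (log2 -0.24 ± 0.07, edgeR adjusted p = 0.309). Without the pool the test called 2802 of 14794 genes, 1053 higher and 1749 lower in bone marrow. Hmga1 was among the lower ones (log2 -0.20, edgeR adjusted p = 0.0436). Hmga2 had 460, 730 and 600 CPM in bone marrow and 418, 598 and 524 CPM in spleen, higher in bone marrow in 3 of 3 sources (log2 0.13 ± 0.08, adjusted p = 0.552).

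In the 2 pups, cells of the Tppp3 reporter lineage (57 and 81 tdTomato-positive stem-gated cells of pup 1 and pup 2) were set against tdTomato-negative ones of the same pup (1597 and 2549). The gene tdTomato was not among the genes counted, so positivity is that of the sort, read from the tube and the hashtag. The positive and negative cells of 1 pup were run in different tubes, positive cells of pup 1 in tube 1 and those of pup 2 in tube 2. Igf2bp1 had 15.3 and 16.7 CPM in tdTomato-positive cells of pups 1 and 2 (14 and 32 UMIs), against 6.60 and 8.43 CPM in tdTomato-negative cells. It was higher in positive cells of both pups, with a log2 fold change of 1.00 ± 0.32, and missed the threshold (edgeR adjusted p = 0.0526, and 0.0512 to 0.604 over the alternatives that gave one). None of the 7 genes was called, where 3.26% of 14484 genes were, 1.34% higher and 1.92% lower, and without pup as a block 0 genes were called by edgeR, with 911 at an unadjusted p under 0.05. The fit with the block had 1 positive and 1 negative sum per pup. Its p-values therefore rest mainly on a spread shared over all genes. Of the other fetal genes 2 of 5 tested rose in positive cells, Igf2 (log2 2.02 ± 0.31, edgeR adjusted p = 3.49e-08) and Dlk1 (0.82 ± 0.16, adjusted p = 6.71e-05). Of the 16 let-7 targets 2 fell, Myc (-0.73 ± 0.14, adjusted p = 0.000103) and Cdk6 (-0.42 ± 0.08, adjusted p = 0.000103), and of 12 let-7 handling genes tested 0 were called. In bone marrow against spleen 0 genes of these 3 lists were called.

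Against lineage-gated cells, Igf2bp2, Hmga2 and Lin28b rose in stem-gated cells, and the other 4 genes did not pass the test. The fit used 4 sources, each with a stem-gated and a lineage-gated sum, and source as a block. It called 3 of the 7 genes, all higher, where 37.9% of 15342 genes were called, 20.6% higher and 17.3% lower. Tube 1 contributed only 29 lineage-gated cells, and the mix of lineages differed between sources.

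Igf2bp2 had 157, 70.9, 99.4 and 110 CPM in stem-gated cells of E19, the pool, tube 1 and tube 2, against 6.72, 2.12, 1.82 and 0.871 CPM in lineage-gated cells. It was higher in stem-gated cells in 4 of 4 sources (log2 5.07 ± 0.42, edgeR adjusted p = 0.000838). Hmga2 had 787, 446, 565 and 618 CPM in stem-gated cells, against 60.8, 64.3, 56.4 and 34.4 CPM in lineage-gated cells of the same sources (log2 3.21 ± 0.23, adjusted p = 0.000639). Both genes were called under every alternative run for this comparison, with smaller folds with gates on thinned cells (log2 3.78 for Igf2bp2 and 2.18 for Hmga2). At 5000 UMIs per cell, 94.4% of E19 stem-gated cells and 9.67% of E19 erythroid cells had a Hmga2 UMI, and 51.8% and 0.492% had an Igf2bp2 UMI. No class is certain to lack these genes, and free RNA from stem cells can give UMIs in other droplets, so the erythroid shares are not read as expression. In the same library Hmga2 had 787 CPM in stem-gated and 30.5 CPM in erythroid cells, Igf2bp2 157 and 1.32 CPM, and Mycn, chosen after its values were seen, 96.0 and 1.51 CPM. Before thinning, the median depth was 6260 UMIs in E19 stem-gated cells and 16659 UMIs in E19 erythroid cells.

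Lin28b had 75.8, 61.5, 74.6 and 72.7 CPM in stem-gated cells of E19, the pool, tube 1 and tube 2, against 60.7, 30.9, 30.9 and 26.1 CPM in lineage-gated cells. It was higher in stem-gated cells in 4 of 4 sources (log2 0.71 ± 0.23, edgeR adjusted p = 0.0492). The call lies at the threshold. The edgeR adjusted p was 0.00337 without E19, 0.0127 in cells with no mitotic UMI (log2 1.41), 0.0355 with no filter on low counts and 0.0419 with the stricter stem gate, and that of DESeq2 was 0.0195. It was 0.147 without the pool, 0.153 without tube 1, 0.201 without tube 2, 0.157 without the block, 0.056 with gates on thinned cells and 0.0504 with doublets removed. In cells with no mitotic UMI, the lineage-gated sums of E19 and tube 1 held only 31 and 6 cells. Igf2bp1 had 34.3, 1.96, 8.72 and 7.19 CPM in stem-gated cells, against 10.5, 0.0447, 10.9 and 1.58 CPM in lineage-gated cells. It was higher in stem-gated cells in 3 of 4 sources, tube 1 being the exception with 6 UMIs in its lineage-gated cells, and was not called (log2 1.93 ± 0.81, edgeR adjusted p = 0.106). DESeq2 (adjusted p = 0.0344) and edgeR with no filter on low counts (adjusted p = 0.0486) called it, and without the pool its log2 fold change was 1.07.

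Hmga1 (log2 0.35 ± 0.22, adjusted p = 0.253) and Igf2bp3 (0.13 ± 0.13, adjusted p = 0.457) were not called. Arid3a had 62.2, 28.3, 45.6 and 53.4 CPM in stem-gated cells of E19, the pool, tube 1 and tube 2, against 21.1, 66.5, 107 and 139 CPM in lineage-gated cells. It was higher in stem-gated cells at E19 and lower in the 3 P2 sources, and was not called (log2 -0.91 ± 0.51, edgeR adjusted p = 0.198). It was called lower without E19 (-1.54, adjusted p = 0.000367) and in cells with no mitotic UMI (-1.90, adjusted p = 0.000383). In the latter fit the lineage-gated sums of E19 and tube 1 held only 31 and 6 cells. Erythroid cells, the class with the lowest Arid3a, were 623 of the 854 lineage-gated cells at E19, against 608 of 2985, 560 of 4686 and 1715 of 4920 in the pool's bone marrow, liver and spleen and 120 of 568 in tube 2.

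The lineage classes separated the 7 genes further, in 1 fit over stem-gated cells and 4 classes with at least 50 cells in at least 2 sources. Against B cells 2 of the 7 were called higher and 2 lower in stem-gated cells, where 21.1% of 15298 genes were called, 12.4% higher and 8.64% lower. Against myeloid cells 3 were called higher and 2 lower, where 28.8% of genes were called, 15.7% higher and 13.1% lower. Against monocyte and dendritic cells, which had no E19 sum, 3 were called higher and 1 lower, where 23.5% of genes were called, 12.1% higher and 11.4% lower. Against erythroid cells 5 were called higher, where 55.7% of genes were called, 32.3% higher and 23.4% lower.

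**Figure D3:**
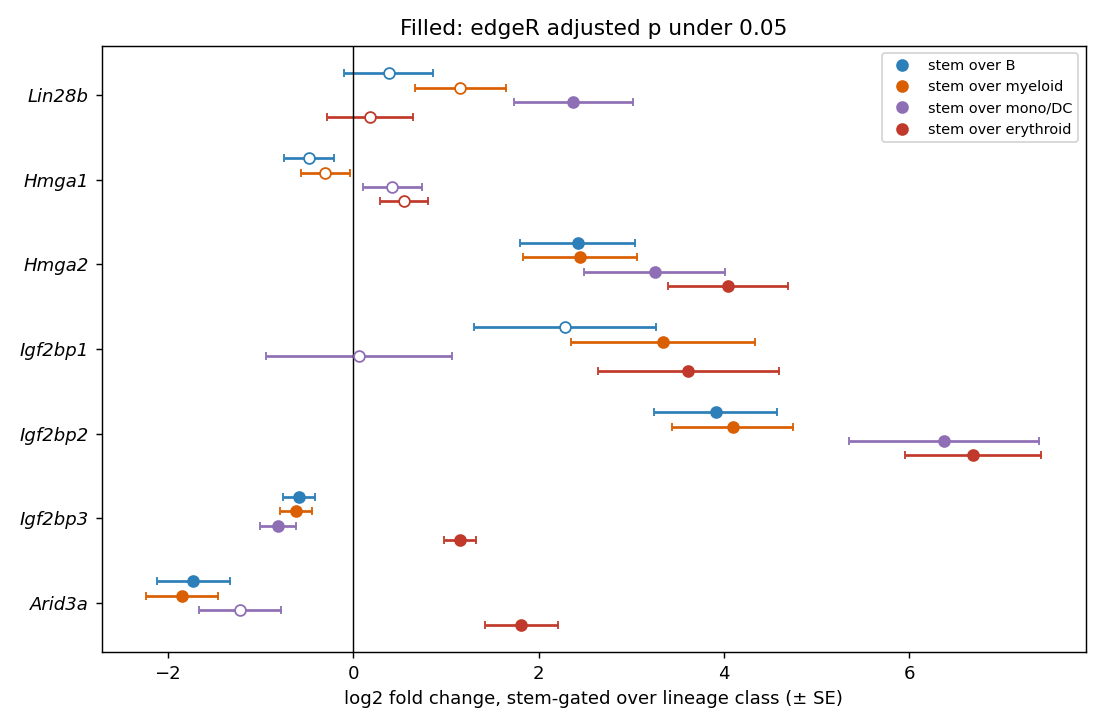
Log2 fold change of stem-gated cells over each of 4 lineage classes (horizontal axis, edgeR, ± SE), with filled points for an adjusted p under 0.05. Igf2bp2 and Hmga2 are filled and to the right of 0 for all 4 classes, while Igf2bp3 and Arid3a lie to the left of 0 for B, myeloid and monocyte and dendritic cells and to the right for erythroid cells.

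Igf2bp2 was higher in stem-gated cells than in B (log2 3.91 ± 0.66), myeloid (4.09 ± 0.65), monocyte and dendritic (6.38 ± 1.02) and erythroid cells (6.69 ± 0.73), with edgeR adjusted p-values between 3.17e-05 and 0.00201. Hmga2 was higher than in B (2.42 ± 0.62), myeloid (2.45 ± 0.61), monocyte and dendritic (3.25 ± 0.76) and erythroid cells (4.04 ± 0.65), with adjusted p-values between 0.000355 and 0.0171. For Hmga2 the adjusted p against B cells was 0.104 without the pool and 0.0538 without the block, and that against myeloid cells was 0.0579 without E19 and 0.057 without the pool.

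Igf2bp3 and Arid3a had another order, lower in stem-gated cells than in B and myeloid cells and higher than in erythroid cells. Arid3a was lower in stem-gated cells than in B (-1.72 ± 0.39, adjusted p = 0.00934) and myeloid cells (-1.84 ± 0.39, adjusted p = 0.00516), and higher than in erythroid cells (1.81 ± 0.39, adjusted p = 0.00231). Against B cells its adjusted p was 0.117 without the pool. Igf2bp3 was lower in stem-gated cells than in B (-0.59 ± 0.17, adjusted p = 0.0333), myeloid (-0.62 ± 0.17, adjusted p = 0.0203) and monocyte and dendritic cells (-0.81 ± 0.20, adjusted p = 0.0129), and higher than in erythroid cells (1.15 ± 0.17, adjusted p = 0.000245). Without E19 the 3 lower calls were lost, with adjusted p-values of 0.295, 0.124 and 0.0798, and without the pool those against B (0.206) and myeloid cells (0.125) were.

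Lin28b was called against monocyte and dendritic cells (log2 2.37 ± 0.64, adjusted p = 0.0217, and 0.0506 without E19). Against myeloid (1.16 ± 0.49, adjusted p = 0.101), B (0.38 ± 0.48, adjusted p = 0.636) and erythroid cells (0.18 ± 0.46, adjusted p = 0.764) it was not. Igf2bp1 was higher in stem-gated than in erythroid (3.62 ± 0.97, adjusted p = 0.00826) and myeloid cells (3.34 ± 0.99, adjusted p = 0.0267), and the myeloid call was lost without the pool (adjusted p = 0.13) and both calls without the block (0.462 and 0.297). The erythroid log2 fold change was 6.20 without E19, 2.32 without the pool and 2.94 without tube 2. Against B cells Igf2bp1 was not called (2.28 ± 0.98, adjusted p = 0.126), but it was without E19 (5.22, adjusted p = 0.0361) and by DESeq2 (adjusted p = 0.0249). Hmga1 was called against no class.

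**Figure D4:**
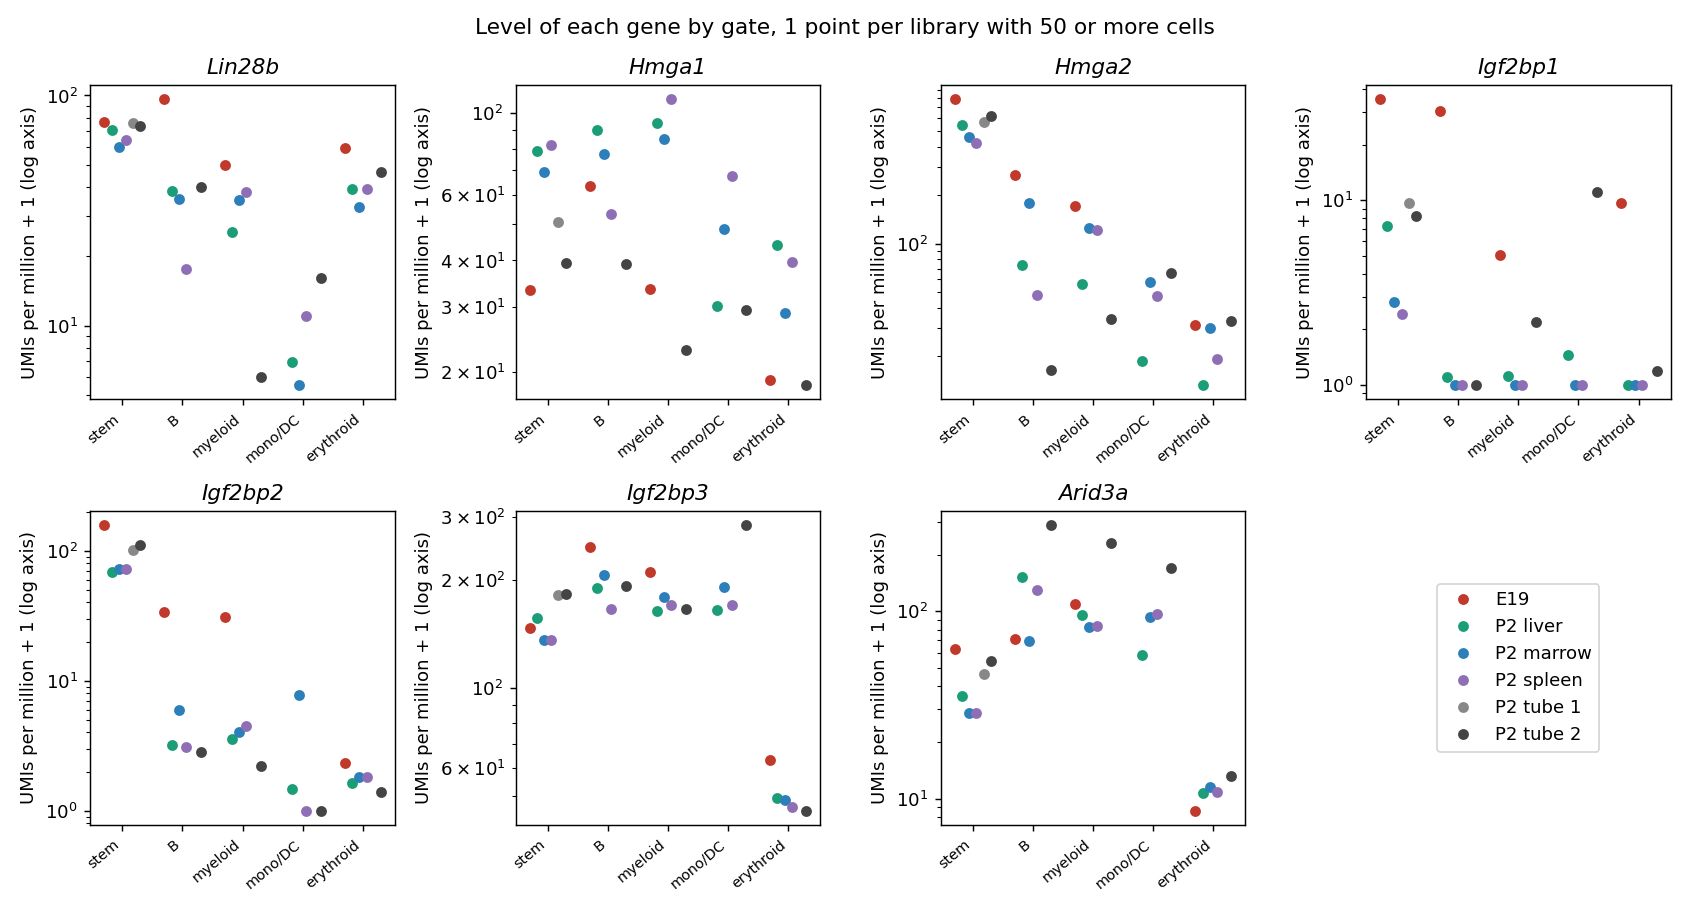
Level of each gene (CPM plus 1, log axis) by gate, with 1 point per library of at least 50 cells. Igf2bp1 lies at 29.5 CPM in E19 B cells and at 0.105 CPM or below in P2 B cells, and Lin28b lies at 95.3 CPM in E19 B cells and at 39.1 CPM or below in P2 B cells.

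Within the lineage classes, some of the 7 genes differed between E19 and P2 beyond counting error and others did not. These values are those of 1 E19 library with counting intervals and no test. Free RNA from stem cells can add UMIs to these classes too. Stem-gated cells were 82.6% of kept cells at E19, between 4.06% and 27.5% in the pool and 68.4% in tube 2. The part of free RNA in the class levels was not tested. In B cells, of which E19 had 144, Lin28b had 95.3 CPM at E19, against 34.7, 37.3 and 16.7 CPM in the pool's bone marrow, liver and spleen and 39.1 CPM in tube 2. The E19 level of Lin28b in B cells (78.6 to 115 CPM) was above that in E19 stem-gated cells (73.7 to 78.0 CPM). Igf2bp1 had 35 UMIs in E19 B cells (29.5 CPM), against 0 UMIs in those of pool bone marrow, pool spleen and tube 2 and 1 UMI in those of liver. Set against the 3 counts per library that a count of 0 allows, E19 was at least 63.6-fold higher than pool bone marrow, 79.5-fold higher than pool spleen and 10.8-fold higher than tube 2, a bound that leaves out the counting error of the 35 E19 UMIs. With that error included, the exact 95% lower limits of the log2 ratio were 5.62, 5.94 and 3.06.

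Igf2bp2 and Hmga2 in B cells followed that order. Igf2bp2 had 32.9 CPM at E19, against 4.95, 2.21 and 2.10 CPM in the pool's bone marrow, liver and spleen and 1.82 CPM in tube 2. Hmga2 had 267 CPM at E19, against 179, 72.8 and 47.3 CPM in the pool and 15.5 CPM in tube 2. Arid3a did not, with 70.0 CPM at E19, against 68.4, 152 and 130 CPM in the pool and 288 CPM in tube 2.

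In erythroid cells Igf2bp1 had 92 UMIs at E19 (8.68 CPM), against 0 UMIs in each of the 3 pool libraries and 1 UMI in tube 2, at least 20.9-fold, 32.2-fold and 71.6-fold higher at E19 than in bone marrow, liver and spleen against the same floor. The exact 95% lower limits of the log2 ratio, which include the error of the E19 count, were 4.06, 4.68 and 5.84. Lin28b had 57.9 CPM in E19 erythroid cells, against 31.8, 38.3 and 38.1 CPM in the pool and 45.4 CPM in tube 2, with E19 highest. Hmga1 had 18.1 CPM at E19, against 27.9, 42.9 and 38.5 CPM in the pool and 17.5 CPM in tube 2. Hmga2 in erythroid cells had 30.5 CPM at E19, against 29.1, 12.3 and 18.4 CPM in the pool and 32.1 CPM in tube 2, and its log2 ratio to bone marrow (0.07, -0.19 to 0.33) and to tube 2 (-0.07, -0.35 to 0.21) did not differ from 0 beyond counting error. Igf2bp3 was highest at E19 in both classes. It had 62.3 CPM in E19 erythroid cells, against 47.9, 48.4 and 45.7 CPM in the pool and 44.6 CPM in tube 2, and 246 CPM in E19 B cells, against 206, 189 and 165 CPM in the pool and 192 CPM in tube 2. In myeloid cells, of which E19 had 63, Igf2bp1 rests on 3 UMIs at E19 and its log2 ratio to tube 2 was 1.76 (-0.87 to 3.99). Its log2 ratio to pool liver was 5.12 (2.22 to 8.02). Myeloid cells of pool bone marrow and spleen had 0 Igf2bp1 UMIs, with lower limits of the log2 ratio of 3.38 and 2.85. In the same myeloid class Igf2bp2 had 29.8 CPM at E19, against 3.06, 2.54 and 3.50 CPM in the pool and 1.20 CPM in tube 2.

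Beside 20.6% of all tested genes called higher and 17.3% called lower in stem-gated against lineage-gated cells, the 3 lists gave the following counts. Of 13 let-7 handling genes tested, 3 rose in stem-gated cells, Mir99ahg (log2 3.81 ± 0.23, edgeR adjusted p = 0.000464), the host transcript of a let-7c cluster, Tut4 (0.62 ± 0.13, adjusted p = 0.0115) and Dis3l2 (0.42 ± 0.12, adjusted p = 0.0312). Ago2, the slicer Argonaute, fell (-0.83 ± 0.12, adjusted p = 0.00402), and so did Lin28a. Lin28a, the paralogue of Lin28b, had 0 UMIs in stem-gated cells of E19 and the pool and 1 UMI in those of each tube, against 5 UMIs in E19 myeloid cells (6.78 CPM) and 56, 121, 27 and 104 UMIs in myeloid cells of pool bone marrow, liver, spleen and tube 2 (3.01, 4.73, 2.10 and 20.8 CPM). The median log2 fold change of the list was 0.03, against 0.06 over all tested genes.

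Of 16 let-7 targets, 6 rose in stem-gated cells and 4 fell, with a median of 0.00, against 0.06 over all tested genes. The risers were the transcription factor gene Mycn (6.33 ± 0.46, adjusted p = 0.00069), the cyclin genes Ccnd1 (1.97 ± 0.28) and Ccnd2 (1.26 ± 0.25), Cbx2 (1.89 ± 0.40), Nr6a1 (1.30 ± 0.18) and Igf1r (0.70 ± 0.12). Those that fell included Cdc34 (-1.53 ± 0.17), Plagl2 (-0.68 ± 0.16) and Cdc25a (-0.66 ± 0.17), and each gene named here had an edgeR adjusted p under 0.05. Of the other fetal genes 5 of 9 were tested and 4 rose, Dlk1 (3.71 ± 0.25, adjusted p = 0.00056), H19 (1.85 ± 0.31), Igf2 (1.45 ± 0.38) and Plag1 (1.39 ± 0.16), with a median of 1.45.

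Within the stem gate, several of the 7 genes were often seen in 1 cell. No count expected from the shares of the single genes was computed. The values below therefore follow the levels of the genes and are not read as co-expression. At 5000 UMIs per cell, the median number of the 7 with a UMI was 3 at E19 and in both tubes and 2 in the pool libraries. Cells with 3 or more were 59.5% at E19, against 39.0%, 44.8% and 42.8% in the pool's bone marrow, liver and spleen and 51.9% and 52.6% in tubes 1 and 2. Cells with none were 0.698% at E19 and between 1.03% and 4.39% in P2 libraries.

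Stem-gated cells with a Lin28b UMI were set against stem-gated cells without one in the same source. Igf2bp3 had 158, 150, 187 and 186 CPM in Lin28b-detected cells of E19, the pool, tube 1 and tube 2, against 138, 128, 164 and 170 CPM in undetected cells. It was higher in 4 of 4 sources (log2 0.21 ± 0.03, edgeR adjusted p = 0.000155). Igf2bp2 had 152, 62.4, 97.0 and 107 CPM in Lin28b-detected cells, against 160, 76.2, 106 and 119 CPM in undetected cells, lower in 4 of 4 sources (-0.13 ± 0.03, adjusted p = 0.0271, and 0.141 without the pool, 0.085 without tube 2). These were 2 of 6 genes called, where 9.29% of 14646 genes were called, 5.64% higher and 3.65% lower. The detected cells were deeper, with a median of 7363 UMIs at E19, against 5835.5 in undetected cells, and 22214 against 16592 in tube 1, since there were too few undetected cells to match them. In a comparison added after seeing the data, each cell was first thinned to 5000 UMIs and split on the thinned counts. It called 112 of 12862 genes, 41 higher and 71 lower in detected cells. Igf2bp3 then had 156, 141, 179 and 181 CPM in detected cells, against 144, 138, 158 and 176 CPM in undetected cells, and was not called (0.09, adjusted p = 0.302), nor was Igf2bp2 (0.04, adjusted p = 0.735). Hmga2 then had 829, 468, 616 and 668 CPM in detected cells, against 774, 435, 565 and 635 CPM in undetected cells, and was called (0.09, adjusted p = 0.0291). In the unthinned split Hmga2 was not called. It had 808, 455, 564 and 619 CPM in detected cells there, against 771, 441, 569 and 615 CPM in undetected cells. Of the unthinned lists, 2 of 12 let-7 handling genes rose (Dis3l2 and Dgcr8), 2 of 16 let-7 targets rose (Cdk6 and Myc), and of 5 other fetal genes Ezh2 rose while Igf2 and H19 fell. These list calls come from the split in which detected cells were deeper, so depth and Lin28b detection are not separated in them.

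Across 29 populations (a gate class in a library with at least 50 cells), the genes whose log2(CPM + 1) followed that of Lin28b most closely among 10286 genes were Suclg2 (Pearson r = 0.91), St7 (0.89), Jade3 (0.89), Hsf1 (0.88) and Prorp (0.88). Of the other 6 genes, Igf2bp2 stood at 0.62, Hmga2 at 0.55, Igf2bp1 at 0.54, Hmga1 at 0.29, Igf2bp3 at 0.00 and Arid3a at -0.35. The populations share libraries and depth, so these are descriptions.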

How the data were processed

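The deposited matrices hold raw UMI counts per gene and cell (10x 3′ v3 chemistry, per the labels' protocols). They were made with Cell Ranger 7.0.0 (3 matrices), 7.1.0 (1) and 8.0.1 (2), per the file headers, and version 7.0.0 with the genome mm10 is what the submitters' processing notes list. 2 further samples held hashtag reference lists only and were not used. Hashtag counts of the tubes were assigned after background subtraction (highest over 50 counts and at least 3 times the second).

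Raw counts were summed per source and gate and tested with edgeR 4.0.16 (TMM, filterByExpr, quasi-likelihood, Benjamini-Hochberg over all genes tested, threshold 0.05) in R 4.3.3, with DESeq2 1.42.0 as an alternative. Sums from the same source stayed paired by a block, since they come from the same animals or library; deviations of paired sums correlated at 0.13 to 0.92. Lineage gates needed at least 4 markers of the leading list (3 in lists of 6 genes). Intervals are exact 95% Poisson or binomial intervals and cover counting error only. Kept libraries held 55281289 to 86364215 UMIs. Nothing says that the sources are independent beyond the labels, so p-values measure the spread between these sums. The fits draw the spread of each gene toward that of all genes. No doublet caller was used for the main values; removing the highest Scrublet scores (scanpy 1.11.5) was an alternative. On simulated counts the test for E19 against P2 (16864 genes) recovered 100 of 100 genes changed 4-fold and 42 of 100 changed 2-fold. It made 9 false calls. The simulation gave every sum the same gene shares before the change and 1 fixed spread. Differences between sources and batches were left out, so this recovery does not carry over to the real counts.

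The 7 genes and the lists were chosen with earlier results of these data known, and gate thresholds were set after seeing the data. Named genes were the 7 members, the members of 3 lists (let-7 handling, let-7 targets, other fetal genes) and the 5 genes most like Lin28b among those at 20 CPM or more in any population. The values of 1 list gene are not reported here.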

Additional observations from a re-analysis of the deposited data

Results flagged for a closer look

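Summed over all lineage classes, Arid3a differed in direction between E19 and P2. Its log2 ratio of stem-gated over lineage-gated cells was 1.56 at E19, against -1.23 in the pool, -1.23 in tube 1 and -1.38 in tube 2. The difference was not tested, E19 being 1 library. Erythroid cells, with 7.64 CPM of Arid3a at E19 and between 9.79 and 12.2 CPM at P2, were 623 of 854 lineage-gated cells at E19; the part of this mix in the difference was not tested. Erythroid cells held 10595386 of the 12793454 UMIs of the E19 lineage-gated sum. In B and myeloid cells alone, Arid3a had 70.0 and 109 CPM at E19 (83 and 80 UMIs), against 62.2 CPM in E19 stem-gated cells. By these levels, E19 stem-gated cells lay below myeloid and above erythroid cells, and close to B cells. The gap to B cells was wider at P2. Arid3a had 27.9 CPM in stem-gated and 68.4 CPM in B cells of pool bone marrow, and 53.4 and 288 CPM in those of tube 2. These gaps were not tested within a library.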

How the results depend on the processing

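For E19 against P2, where edgeR called 0 genes, DESeq2 called 945, no filter on low counts 54, the pool's libraries as separate sums 246, pool bone marrow only 9, doublets removed 6 and cells with no mitotic UMI 6, and leaving out a source gave 0 to 5996. For stem-gated against lineage-gated cells (5809 called), cells with no mitotic UMI gave 2642 and leaving out a source 3530 to 5864 (3726 without tube 2). Leaving out a source gave 1016 to 3462 genes against B (1638 without E19), 2129 to 4480 against myeloid (2294 without E19), 2223 to 3542 against monocyte and dendritic and 5992 to 8969 against erythroid cells. For bone marrow against spleen (6 called), DESeq2 called 56, no filter 391, gates on thinned cells 3 and no replicate block 0, and leaving out a source gave 6 to 2802 (115 without pup 1). For tdTomato (472 called), DESeq2 called 85 and no replicate block 0; leaving out a pup could not be fitted with the block. For the Lin28b split (1361 called), DESeq2 called 553, a 1 to 1 match 0, no replicate block 0 and thinned cells 112, and leaving out a source gave 820 to 1494 (859 without tube 2). The cause of these shifts was not tested, beyond fewer samples where a source was left out.

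Of 563 values of single members under an alternative, 500 kept direction and side of the threshold, 32 lost the call, 19 gained one and 12 turned sign. Sign turned for Igf2bp3 between E19 and P2 (0.066 with no mitotic UMI, 0.072 with the stricter stem gate) and between stem-gated and lineage-gated cells (-0.23 with no mitotic UMI, -0.053 with the stricter stem gate, -0.12 with gates on thinned cells), for Igf2bp1 against monocyte and dendritic cells (-0.29, gates on thinned cells) and between bone marrow and spleen (0.0105 with DESeq2, 0.21 without pup 2). In the Lin28b split it turned for Hmga1 (0.0069 with doublets removed, 0.0068 without E19, where leaving out a source gave -0.033 to 0.0068, with -0.0145 without the pool), Arid3a (0.0138) and Igf2bp2 (0.0442), both with thinned cells. All liver ratios stayed within the main counting intervals with gates on thinned cells and with doublets removed. Without a replicate block, 7 calls of members were lost: Lin28b against lineage-gated cells (adjusted p = 0.157), Hmga2 (0.0538) and Igf2bp3 (0.0594) against B cells, Igf2bp1 against erythroid (0.462) and myeloid cells (0.297), and Igf2bp2 and Igf2bp3 in the Lin28b split (1.00 each), and 1 was gained, Arid3a against monocyte and dendritic cells (0.0444). The stricter stem gate and the thinned Lin28b split were chosen after seeing the data. The Igf2bp1 levels of the pool libraries rest on 14 to 24 UMIs.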
